A study of Mus musculus with 3 samples.

Results

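NR2F2 peaks were found around all 9 of the AP-1 and Maf transcription factor genes considered here, namely Fos, Fosb, Fosl1, Fosl2, Jun, Junb, Jund, Maf and Mafk. A peak was assigned to a gene when the nearest transcription start site (TSS) of the curated RefSeq annotation belonged to that gene, or when the nearer edge of the peak lay within 50 kb of its TSS. This gave 27 of the 10069 peaks, of which 9 were assigned to Fos family genes, 11 to Jun family genes and 7 to Maf family genes. NR2F2 (COUP-TFII), an orphan nuclear receptor, was mapped on chromatin by ChIP-seq, the sequencing of immunoprecipitated DNA, in E14.5 whole testes from CD-1, an outbred mouse stock. The 2 NR2F2 ChIP libraries came from 2 separate immunoprecipitations, on chromatin of 30 pooled testes, and the single input library was sheared chromatin without immunoprecipitation. The study describes them as independent experiments and biological replicates. The animals carried no stated allele and received no stated treatment. Because whole testes were used, a count cannot be assigned to one cell type, and binding in fewer cells cannot be told apart from weaker binding per cell.

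AP-1 is a family of dimeric transcription factors in which a Jun protein pairs through a leucine zipper with a Fos protein, with another Jun protein or with an ATF protein, and many AP-1 genes are immediate early genes that respond rapidly to growth factors and stress. Maf factors belong to the same basic leucine zipper class. The large Maf factors, such as Maf (c-Maf), carry an activation domain, whereas the small Maf factors, such as Mafk, lack one and act through partners such as the cap-n-collar proteins. NR2F2 binds repeats of the hexamer AGGTCA, and AP-1 binds the palindrome-like heptamer TGAGTCA, which reads TGACTCA on the other strand.

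Of the 27 peaks, 4 lay within 1500 bp of the TSS of the gene they were assigned to, at Fosl2, Jun, Junb and Maf. Their sequences are given here because they are the peaks at the genes themselves, read 5′ to 3′ on the strand of the gene from GRCm38 (mm10). AGGTCA, AGAGGTCA, AGGGGTCA and TGAGTCA are in capitals on either strand. AGAGGTCA and AGGGGTCA are called extended forms here, although only AGAGGTCA contains AGGTCA. For Jun and Junb the coding part of the peak is shown.
Fosl2, 329 bp upstream (chr5:32135844-32136143, plus strand): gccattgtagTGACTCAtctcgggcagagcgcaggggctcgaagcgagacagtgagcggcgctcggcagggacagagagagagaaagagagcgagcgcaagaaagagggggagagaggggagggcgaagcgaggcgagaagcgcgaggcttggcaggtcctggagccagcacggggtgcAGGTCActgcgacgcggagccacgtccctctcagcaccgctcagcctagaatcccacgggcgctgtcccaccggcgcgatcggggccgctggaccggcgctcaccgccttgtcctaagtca
Jun, coding exon (chr4:95051014-95051271, minus strand): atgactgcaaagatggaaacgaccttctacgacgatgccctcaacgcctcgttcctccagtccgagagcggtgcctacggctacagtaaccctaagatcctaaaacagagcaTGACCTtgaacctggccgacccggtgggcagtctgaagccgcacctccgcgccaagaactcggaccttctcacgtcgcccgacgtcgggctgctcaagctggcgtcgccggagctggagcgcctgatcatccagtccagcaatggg
Junb, coding exon (chr8:84977395-84977666, minus strand): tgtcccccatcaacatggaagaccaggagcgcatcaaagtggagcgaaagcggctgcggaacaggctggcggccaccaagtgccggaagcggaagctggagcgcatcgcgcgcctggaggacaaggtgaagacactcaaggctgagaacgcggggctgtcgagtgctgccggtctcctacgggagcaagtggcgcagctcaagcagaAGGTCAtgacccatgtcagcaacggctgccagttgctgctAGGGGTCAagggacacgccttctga
Maf, coding exon (chr8:115705824-115706123, minus strand): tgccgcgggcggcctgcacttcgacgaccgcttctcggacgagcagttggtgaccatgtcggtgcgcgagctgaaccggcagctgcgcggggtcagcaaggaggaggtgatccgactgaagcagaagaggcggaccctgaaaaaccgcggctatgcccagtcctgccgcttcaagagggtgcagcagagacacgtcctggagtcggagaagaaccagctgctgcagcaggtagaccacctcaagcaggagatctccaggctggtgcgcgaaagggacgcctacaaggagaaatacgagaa
The Fosl2 peak held 1 AP-1 heptamer and 1 AGGTCA, the Jun peak 1 AGGTCA, the Junb peak 1 AGGTCA and 1 extended form, and the Maf peak none of these letters. The peaks at Jun, Junb and Maf all had their midpoint in a coding exon, at coding base 109 of 1005 in Jun, 914 of 1035 in Junb and 891 of 1113 in Maf. The Jun peak therefore covered the start of the reading frame, and those of Junb and Maf lay towards its end, where both genes encode the basic leucine zipper. The longest run of identical bases between any 2 of these 4 printed sequences was 11 bases, between Jun and Junb. Over all peaks, 10.3% had their midpoint in a coding exon, against these 3 of 27.

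Away from the genes themselves, the peaks below are shown because they held the AP-1 heptamer or an extended form of AGGTCA.
Junb, 6.91 kb upstream (chr8:84985657-84985777, minus strand): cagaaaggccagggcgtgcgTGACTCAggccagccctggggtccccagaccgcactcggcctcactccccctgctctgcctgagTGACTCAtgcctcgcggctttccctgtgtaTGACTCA
Jun, 43.7 kb downstream (chr4:95008310-95008409, minus strand): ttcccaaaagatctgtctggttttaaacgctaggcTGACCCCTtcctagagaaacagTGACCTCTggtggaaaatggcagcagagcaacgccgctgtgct
Maf, 563 kb downstream (chr8:115144200-115144299, minus strand): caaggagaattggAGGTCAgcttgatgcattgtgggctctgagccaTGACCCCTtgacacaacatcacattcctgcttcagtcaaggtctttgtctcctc
The peak upstream of Junb held 3 AP-1 heptamers and no AGGTCA, and only 3 of the peaks on assembled chromosomes (0.0298%) held 3 or more. Both capital runs in the Jun peak are extended forms read on the other strand, and 1.27% of all peaks held at least 2. In 4 further genes, 100 bases of the peak with the highest summed ChIP count are shown, placed around AGGTCA where the peak held it.
Fos, 11.9 kb downstream (chr12:85485918-85486017, plus strand): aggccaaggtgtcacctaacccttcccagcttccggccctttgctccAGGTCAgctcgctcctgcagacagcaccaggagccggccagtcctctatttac
Jund, 5.57 kb upstream (chr8:70691910-70692009, plus strand): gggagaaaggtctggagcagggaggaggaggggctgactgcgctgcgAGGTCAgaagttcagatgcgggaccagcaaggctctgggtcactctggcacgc
Fosb, 9.85 kb upstream (chr7:19319999-19320098, minus strand): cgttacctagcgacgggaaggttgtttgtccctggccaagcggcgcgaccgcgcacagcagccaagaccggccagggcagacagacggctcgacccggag
Fosl1, 9.85 kb downstream (chr19:5457643-5457742, plus strand): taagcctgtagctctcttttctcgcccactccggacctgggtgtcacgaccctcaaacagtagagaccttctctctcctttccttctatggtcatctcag
The Fos and Jund stretches were centred on the 1 AGGTCA of each peak, 71 and 64 bp from the peak centre, and so carry it by choice. The Fosb and Fosl1 stretches are the central 100 bp, and neither whole peak held AGGTCA.

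Whole-library depths were not used here. The reads counted at all peaks totalled 73251 in the input, 426784 in ChIP replicate 1 and 364261 in ChIP replicate 2, which are totals at peaks and not sequencing depths. At the 27 peaks the input count ranged from 4 to 14 (median 9), the count of ChIP replicate 1 from 15 to 90 (median 52) and that of ChIP replicate 2 from 18 to 76 (median 42). Counts are raw reads per 300 bp peak throughout. Both ChIP counts were above the input count at 27 of 27 peaks, as at 99.9% of all peaks.

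**Figure D1:**
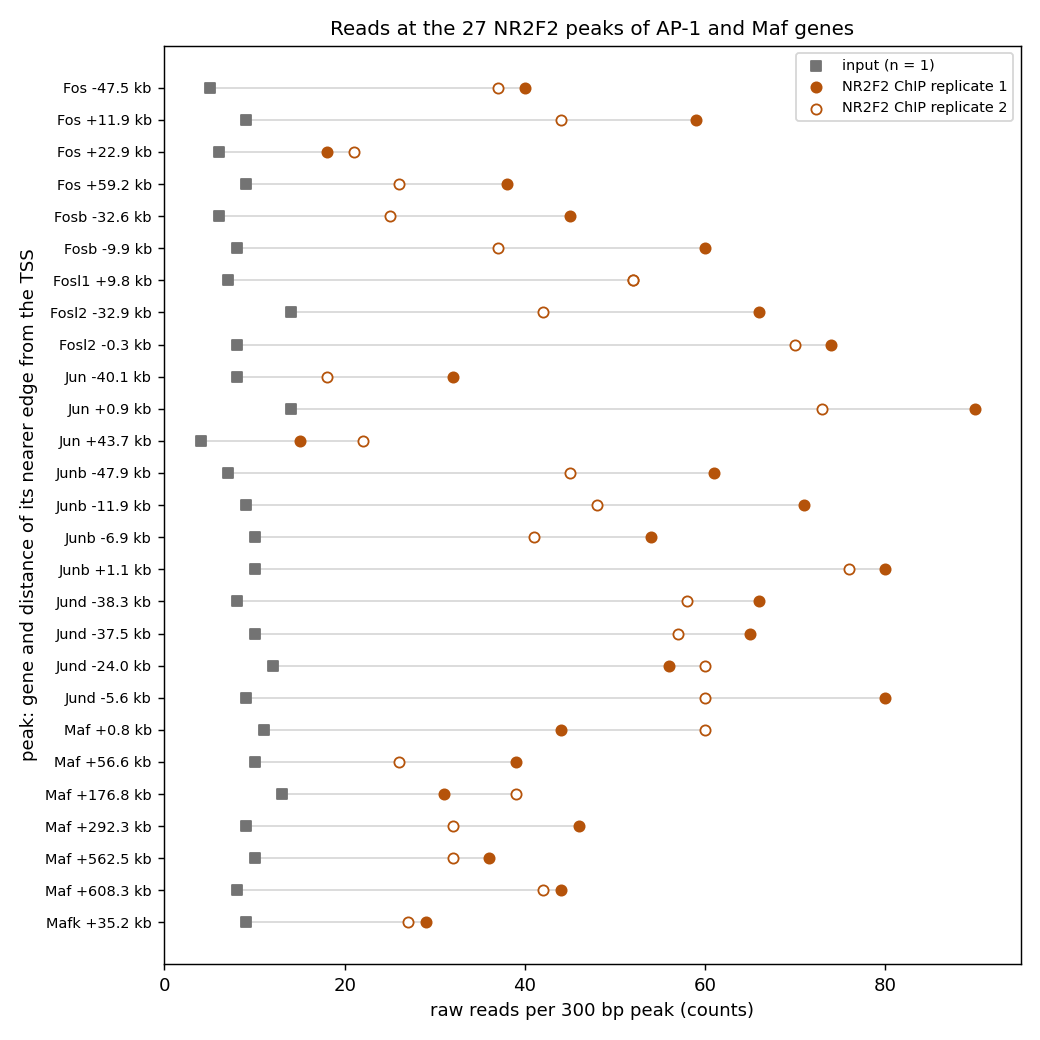
Raw reads per 300 bp peak (x axis, counts) in the input (grey square) and in both NR2F2 ChIP replicates (filled and open circles) at each of the 27 peaks (y axis, gene and distance from its TSS, negative upstream). The ChIP circles lie to the right of the input square at every peak, with the highest count, 90, at the peak in the Jun coding exon, and the circles coincide at 52 for Fosl1.

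Fos, the prototype Fos protein (gene 14281, chr12:85473890-85477274, plus strand), had 4 peaks, all outside any gene and nearest to its own TSS. The peak 47.5 kb upstream (chr12:85426126-85426425) had 5 reads in the input and 40 and 37 in ChIP replicates 1 and 2. The strongest of the 4, 11.9 kb downstream of the TSS (chr12:85485747-85486046), had 9 input reads and 59 and 44 ChIP reads. Further downstream, the counts were lower. At 22.9 kb (chr12:85496786-85497085) the input had 6 reads and the ChIP replicates 18 and 21. The peak at 59.2 kb (chr12:85533041-85533340) had 9 input reads and 38 and 26 ChIP reads. No peak lay within 1500 bp of the Fos TSS.

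Fosb, a Fos relative that is likewise an immediate early gene (gene 14282, chr7:19302696-19310045, minus strand), had 2 peaks, both upstream. The peak at 9.85 kb (chr7:19319899-19320198) had 8 input reads and 60 and 37 ChIP reads, and Fosb was its nearest gene. That at 32.6 kb (chr7:19342665-19342964) had 6 input reads and 45 and 25 ChIP reads, and lay 2107 bp from the TSS of Ercc1, a subunit of a DNA repair endonuclease. At both, replicate 1 was the higher ChIP library.

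Fosl1, which encodes FRA1 (gene 14283, chr19:5447698-5455938, plus strand), had 1 peak, 9.85 kb downstream of its TSS and beyond its last exon (chr19:5457543-5457842). It had 7 input reads and 52 reads in each ChIP replicate. This peak overlapped the TSS of Ccdc85b, so that Fosl1 was assigned by distance alone.

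Fosl2, which encodes FRA2 (gene 14284, chr5:32136472-32157840, plus strand), was the only gene with a peak just upstream of its TSS. That peak, 329 bp from the TSS (chr5:32135844-32136143), had 8 input reads and 74 and 70 ChIP reads, the highest count of any Fos family peak in both replicates. A second peak, 32.9 kb upstream (chr5:32103275-32103574), had 14 input reads and 66 and 42 ChIP reads, and its nearest TSS was that of Gm51292, 10.6 kb away. Its input count was one of the 2 highest among the 27 peaks.

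Jun, which encodes c-Jun (gene 16476, chr4:95049036-95052222, minus strand, 1 exon), had 3 peaks. The peak in its coding exon, 909 bp downstream of the TSS (chr4:95051014-95051313), had 14 input reads and 90 and 73 ChIP reads. Its summed ChIP count of 163 was the highest of the 27 and above that of 95.4% of all peaks. The peaks on either side were among the weakest. That 43.7 kb downstream (chr4:95008219-95008518), with the pair of extended forms, had 4 input reads and 15 and 22 ChIP reads and was nearest to Mysm1, a histone H2A deubiquitinase, 29119 bp away. The peak 40.1 kb upstream (chr4:95092316-95092615) had 8 input reads and 32 and 18 ChIP reads.

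Junb (gene 16477, chr8:84976909-84978748, minus strand, 1 exon) encodes a Jun protein that can counteract c-Jun, and had 4 peaks, of which 1 was nearest to its own TSS. That peak, in the coding exon 1082 bp downstream of the TSS (chr8:84977367-84977666), had 10 input reads and 80 and 76 ChIP reads. The peak 6.91 kb upstream (chr8:84985657-84985956), with the 3 AP-1 heptamers, had 10 input reads and 54 and 41 ChIP reads, and was 4051 bp from the TSS of Hook2. Hook2 encodes a protein that links cargo to microtubules. At 11.9 kb upstream (chr8:84990648-84990947), in an intron of Hook2 and 25 bp from a TSS of that gene, the input had 9 reads and the ChIP replicates 71 and 48. The peak 47.9 kb upstream (chr8:85026605-85026904) overlapped the TSS of Trir, with 7 input reads and 61 and 45 ChIP reads. All 4 peaks were above the median of all peaks in summed ChIP count.

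Jund (gene 16478, chr8:70697739-70700616, plus strand, 1 exon), the broadly expressed Jun protein, also had 4 peaks, all upstream. The closest, 5.57 kb from the TSS (chr8:70691874-70692173), had 9 input reads and 80 and 60 ChIP reads and was the only one nearest to Jund. The peak at 24.0 kb (chr8:70673485-70673784), in an intron of Lsm4 and 254 bp from its TSS, had 12 input reads and 56 and 60 ChIP reads. Lsm4 is part of a complex in RNA processing. The other two flanked the TSS region of Pgpep1, a peptidase gene, and were 451 bp apart. The nearer to Jund, at 37.5 kb (chr8:70659933-70660232), had 10 input reads and 65 and 57 ChIP reads. Its neighbour at 38.3 kb (chr8:70659182-70659481) had 8 input reads and 66 and 58 ChIP reads.

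Maf (gene 17132, chr8:115703253-115706894, minus strand, 1 exon in the curated transcript) encodes a large Maf factor known in macrophages and lens, and had 6 peaks, the most of the 9 genes. The peak in its coding exon, 771 bp downstream of the TSS (chr8:115705824-115706123), had 11 input reads and 44 and 60 ChIP reads. The other 5 lay beyond 50 kb downstream and were assigned because Maf had the nearest TSS. The peak at 56.6 kb (chr8:115650035-115650334) had 10 input reads and 39 and 26 ChIP reads. At 177 kb (chr8:115529766-115530065) the input had 13 reads and the ChIP replicates 31 and 39. The peak at 292 kb (chr8:115414271-115414570) had 9 input reads and 46 and 32 ChIP reads. The most distant peaks lay in introns of Wwox, a gene encoding an oxidoreductase with WW domains. That at 563 kb (chr8:115144047-115144346) had 10 input reads and 36 and 32 ChIP reads. That at 608 kb (chr8:115098271-115098570) had 8 input reads and 44 and 42 ChIP reads. The 5 distal peaks had summed ChIP counts of 65 to 86, all below the 104 of the peak in the Maf exon.

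Mafk, a small Maf factor (gene 17135, chr5:139791536-139802652, plus strand), had 1 peak, 35.2 kb downstream of its TSS (chr5:139826741-139827040). It had 9 input reads and 29 and 27 ChIP reads, a summed count above that of 33.8% of all peaks. The peak overlapped the TSS of Psmg3, a proteasome assembly chaperone, with its midpoint in the Psmg3 5′ UTR.

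**Figure D2:**
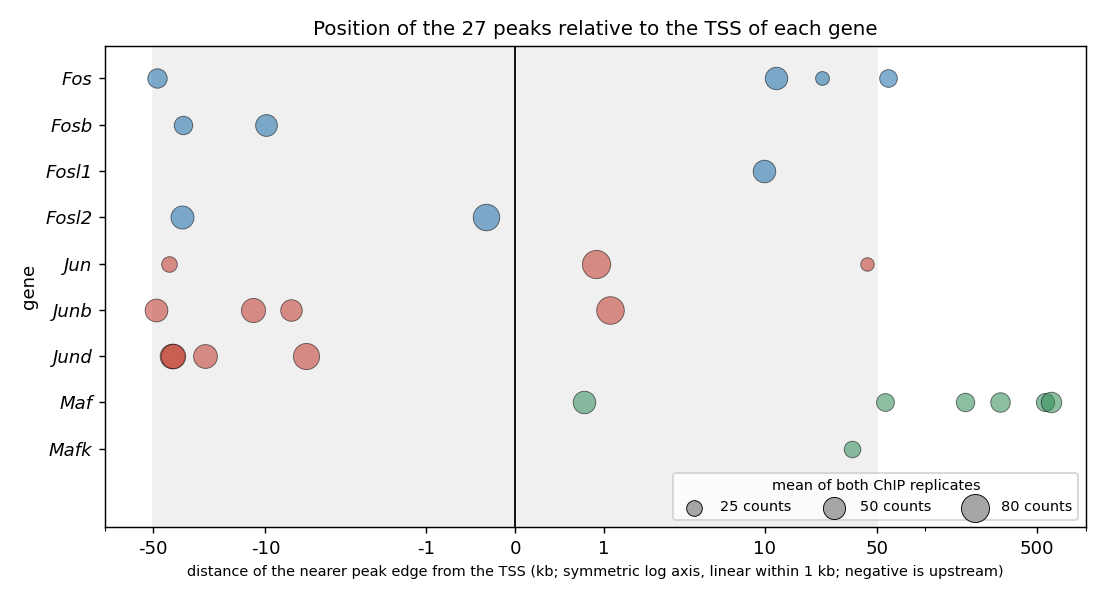
Distance of the nearer edge of each peak from the TSS of its gene (x axis, kb, symmetric log axis that is linear within 1 kb, negative upstream), by gene (y axis). Circle area is the mean count of both ChIP replicates, grey shading marks 50 kb on either side, and colours mark the Fos (blue), Jun (red) and Maf (green) families. The largest circles lie close to the TSS of Fosl2, Jun and Junb, and 5 of the 6 Maf peaks lie beyond the shading.

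By family, the summed ChIP count ranged from 39 to 144 (median 97) at the 9 Fos family peaks, from 37 to 163 (median 119) at the 11 Jun family peaks and from 56 to 104 (median 70) at the 7 Maf family peaks, so that the families overlapped. The median was 68 over all peaks. Of the 27 peaks, 20 were above that median, 14 were above 95, the 75th percentile of all peaks, and 2 were below 49, the 25th percentile, namely the Fos peak at 22.9 kb and the Jun peak at 43.7 kb. The input was also higher, with a median of 9 reads against 7 over all peaks. With 0.5 added to each count, the ChIP to input ratio at the 27 peaks had medians of 5.24 (replicate 1) and 4.84 (replicate 2), or 5.04 ± 0.280 (SD, n = 2). Over all peaks the medians were 5.11 and 4.39, or 4.75 ± 0.505 (SD, n = 2). The 27 peaks had the higher median in both libraries, while the values of the 2 replicates overlapped between the sets. Both ratios used raw ChIP counts over the same single input. The SD therefore includes the difference in ChIP totals and no spread of the input.

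The 4 peaks within 1500 bp of their own TSS had summed ChIP counts of 104 to 163 (median 150), and the other 23 had 37 to 140 (median 86). The ranges overlapped, and the input counts of the near peaks (8 to 14, median 10.5) and of the others (4 to 14, median 9) also overlapped. Between genes, 4 of the 9 had a peak within 1500 bp of the TSS, against 28.6% of the 21000 protein-coding genes with a curated transcript. The partner genes below were counted within 1 kb instead. At that cut Junb, with its peak at 1082 bp, dropped out. Only Fosl2, Jun and Maf were left, against 28.1% of protein-coding genes. All 9 had a peak within 50 kb, against 56.1% of protein-coding genes.

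**Figure D3:**
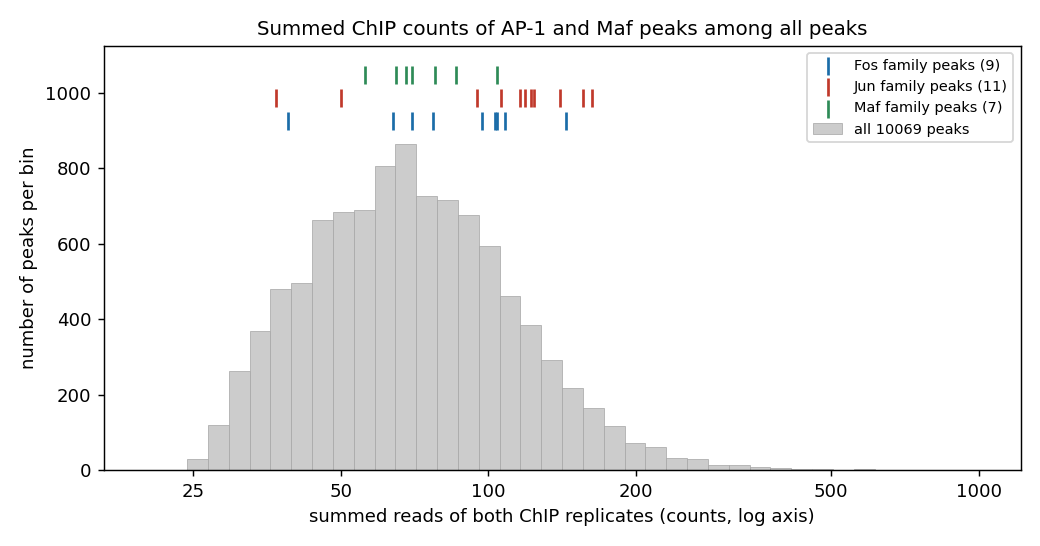
Number of peaks (y axis) by summed reads of both ChIP replicates (x axis, counts, log axis) for all 10069 peaks (grey bars), with a tick for each Fos, Jun and Maf family peak above them. The ticks span 37 to 163, and 20 of 27 lie above the all-peak median of 68.

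Of the 27 peaks, 16 had one of the 9 genes as nearest gene and 11 were nearer to the TSS of another gene, 7 of them within 1 kb of it, at Ccdc85b, Hook2, Trir, Pgpep1, Lsm4 and Psmg3. By position relative to the nearest gene of any kind, 5 of the 27 overlapped its TSS or lay within 1 kb upstream (36.0% of all peaks on assembled chromosomes), 6 lay in the gene body (33.9%), 4 lay up to 10 kb upstream (4.34%) and 12 lay elsewhere (25.8%). The number of neighbours differed between the loci. Within 50 kb of their own TSS, Fosl1 had 9 other protein-coding genes, Junb 8, Fosb and Jund 5 each and Mafk 3, whereas Fos, Fosl2, Jun and Maf had 0. The peaks at another gene's TSS had summed ChIP counts of 56 to 124 (median 116), and the 16 nearest to one of the 9 genes had 39 to 163 (median 82).

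To ask whether these peaks stood above or below the typical peak in ChIP over input, a log2 ratio was fitted for all peaks with the edgeR quasi-likelihood test and trimmed mean (TMM) factors, which set the typical peak to about 0. None of the 27 peaks passed an adjusted p of 0.05, 0 had an unadjusted p below 0.05, against 10.4% of all peaks, and the lowest Benjamini-Hochberg adjusted p by edgeR was 0.560. DESeq2 also called 0, but gave an adjusted p for only 2 of them. Over all peaks, 1.53% were called above and 0.0497% below the typical peak. The relative log2 ratios ran from -0.88 at the Maf peak 177 kb downstream to 0.85 at the peak upstream of Fosl2, with 14 above 0 and 13 below and a median of 0.11 against 0.02 over all peaks. Standard errors of 0.41 to 0.82 limited what could be resolved.

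By family, 6 of 9 Fos family peaks, 7 of 11 Jun family peaks and 1 of 7 Maf family peaks had a relative log2 ratio above 0, with medians of 0.22, 0.29 and -0.55. Without ChIP replicate 1 these counts were 4 of 9, 9 of 11 and 2 of 7. The single Maf family peak above 0, at 608 kb, fell to -0.04 without ChIP replicate 2 and to -0.0047 without TMM factors, which left 0 of 7. No family difference was tested, since peaks of one gene are not replicates. For the strongest peak of each gene, the peak upstream of Fosl2 had a mean ChIP count of 72.0 ± 2.83 (SD, n = 2) and a relative log2 ratio of 0.85 ± 0.50 (SE), with an edgeR adjusted p of 0.60. The exon peak of Junb had 78.0 ± 2.83 reads and 0.65 ± 0.46 (edgeR adjusted p = 0.709), and the Jund peak at 5.57 kb had 70.0 ± 14.1 reads and 0.64 ± 0.49 (edgeR adjusted p = 0.747). The exon peak of Jun had 81.5 ± 12.0 reads and a relative log2 ratio of only 0.22 ± 0.41 (edgeR adjusted p = 0.930), with an input count of 14. The other Fos family genes had relative log2 ratios between those of Junb and 0, at Fosl1 (0.58 ± 0.56, edgeR adjusted p = 0.835, 52.0 ± 0 reads), Fosb (0.28 ± 0.55, edgeR adjusted p = 0.937, 48.5 ± 16.3 reads) and Fos (0.20 ± 0.52, edgeR adjusted p = 0.957, 51.5 ± 10.6 reads). The Maf exon peak had 52.0 ± 11.3 reads and -0.07 ± 0.49 (edgeR adjusted p = 0.988), and the Mafk peak 28.0 ± 1.41 reads and -0.68 ± 0.57 (edgeR adjusted p = 0.792).

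**Figure D4:**
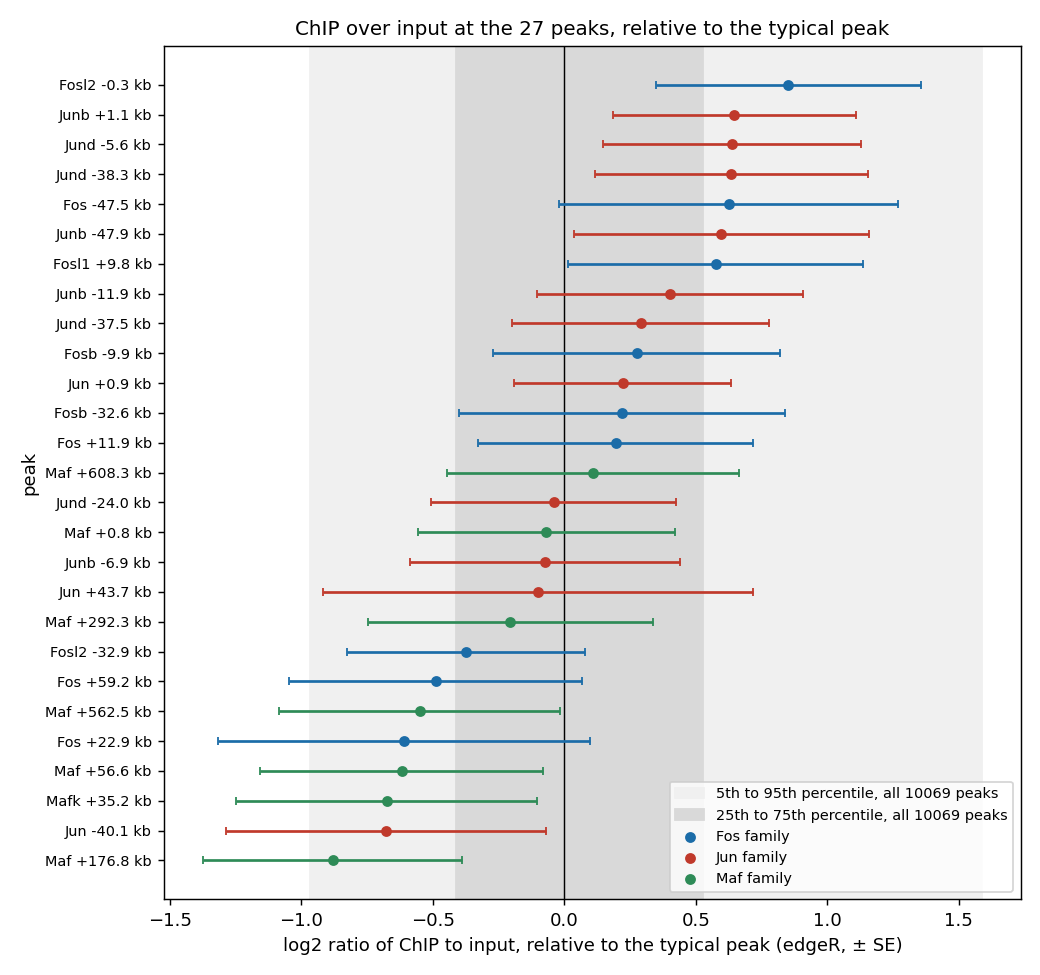
Log2 ratio of ChIP to input relative to the typical peak (x axis, edgeR estimate, bars are ± SE) for the 27 peaks (y axis, ordered by value), coloured by family. Shading marks the 25th to 75th and the 5th to 95th percentiles of all 10069 peaks; all 27 estimates lie between -0.88 and 0.85, inside the wider band.

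To ask whether ChIP reads exceeded input reads, the mean depth of the ChIP libraries was set equal to that of the input. All 27 peaks passed (edgeR, highest adjusted p = 0.00672, at the Fos peak 22.9 kb downstream), with log2 ratios of 1.43 to 3.15 and a median of 2.41 against 2.32 over all peaks. This is close to the background, as 97.9% of all peaks passed, and the peaks had been called on the same ChIP reads. At the same depth, DESeq2 called 19 of 27 (62.2% of all peaks), and edgeR without scaling the ChIP replicates to each other called 22 (80.7%). If the ChIP libraries were in truth 2 times deeper than the input, 19 of 27 would pass, against 56.5% of all peaks.

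The 2 ChIP replicates were compared at each peak by an exact two-sided binomial test against their totals at peaks, which covers counting error only. None of the 27 peaks differed after adjustment over all peaks (lowest adjusted p = 0.416), against 0.0993% of all peaks. Replicate 1 had the higher raw count at 21 peaks, replicate 2 at 5, and they were equal at Fosl1. These raw counts were not scaled, and replicate 1 held 54.0% of the ChIP reads at all peaks (median 37 against 31). The exon peak of Maf, with 44 and 60 reads, was the only one with an unadjusted p below 0.05 (exact binomial p = 0.0182), against 8.83% of all peaks.

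In sequence, 17 of the 27 peaks held AGGTCA on either strand, against 37.7% of all peaks of the same length on assembled chromosomes. At 9 of them it lay in the central 100 bp, against 19.7% of all peaks. The extended forms AGAGGTCA and AGGGGTCA, of which the first contains AGGTCA, were found in 3 peaks (Jun at 43.7 kb, the Junb exon and Maf at 563 kb), against 10.5% of all peaks. TGAGTCA was found in 2 peaks, upstream of Fosl2 and 6.91 kb upstream of Junb, against 3.48% of all peaks, and at neither in the central 100 bp. No peak held TGACGTCA, the cyclic AMP response element (1.62% of all peaks), the Maf site TGAGTCAGC, which contains the AP-1 heptamer (0.407%), or the direct repeat of AGGTCA with 1 base between (1.24%). The 27 peaks had a median G+C content of 58.3% against 60.7% over all peaks, from 40.7% at the Jun peak at 43.7 kb to 68.0% at the Fosb peak at 9.85 kb. A match of these letters is a description of the sequence and not of a bound site.

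Among 27 further genes that act with AP-1 and Maf factors, 22 had at least 1 peak by the same rule, with 39 peaks in all, against 57.9% of protein-coding genes with at least 1. A peak within 1 kb of the TSS was found for 10, against 28.1% of protein-coding genes. Of the AP-1 partners, 6 of 7 genes had a peak, as had 4 of 5 other Maf genes, 5 of 6 cap-n-collar and Bach genes and 7 of 9 upstream kinases and factors. Of the 39 peaks, 39 were above input at equal depth (97.9% of all peaks), 1 was called above the typical peak (1.53% of all peaks) and 0 below (0.0497%). The called peak was assigned to Atf3, a stress-induced AP-1 partner, from 41148 bp away (chr1:191224481-191224780), and had 8 input reads and 142 and 86 ChIP reads (relative log2 ratio 1.50 ± 0.45 (SE), edgeR adjusted p = 0.0490). It lay 27 bp from the TSS of D730003I15Rik, and its adjusted p was 0.110 without TMM factors, 0.352 with DESeq2 size factors and 0.282 in DESeq2 itself.

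The 10 genes with a peak within 1 kb of the TSS fell mostly among the upstream factors. Nfe2l2, which encodes NRF2, a partner of small Maf factors, had 3 input reads and 71 and 50 ChIP reads at a peak 876 bp from its TSS. Nfe2l1, its relative, had 9 input reads and 54 and 59 ChIP reads at 122 bp. Srf, the serum response factor that activates Fos, had 5 input reads and 63 and 39 ChIP reads at 389 bp. Of its cofactors, Elk1 had 5 input reads and 33 and 16 ChIP reads at 26 bp. Elk4 had 12 input reads and 31 and 32 ChIP reads at a peak that overlapped its TSS. Among the kinase genes, Mapk14, which encodes p38 alpha, had 5 input reads and 49 and 32 ChIP reads at 8 bp, and Mapk8, which encodes the Jun kinase JNK1, had 3 input reads and 17 and 21 ChIP reads at 202 bp. Atf2, a dimer partner of Jun, had 5 input reads and 31 and 26 ChIP reads at 76 bp, and Mafa, a large Maf factor, had 10 input reads and 47 and 37 ChIP reads at 905 bp. None of these 10 peaks passed the test against the typical peak (edgeR adjusted p from 0.130 at Nfe2l2 to 0.994 at Elk1).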

How the data were processed

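NR2F2 ChIP-seq was performed on E14.5 CD-1 mouse testes. Per the labels there were 2 ChIP libraries and 1 input, and groups and replicate numbers were taken from them. For each library the authors deposited unnormalised read counts, 1 value per peak. According to the study's methods, the authors trimmed reads (Trim Galore 0.6.7 in the submitters' processing notes), aligned them locally to mm10 (Bowtie 2) and dropped alignments of low mapping quality and duplicates (Picard 1.110). Peaks were called with HOMER 4.11.1 on the merged ChIP replicates, resized to 300 bp and cleared of blacklisted regions. The rule by which a read was counted in a peak was not given in the sources used.

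Distances were computed from the nearer peak edge to the TSS of 45756 curated RefSeq transcripts (26180 genes) on GRCm38, the same build. The members and gene lists were chosen with earlier results of these data known. Every peak of the 9 genes was named with its counts, and full statistics were given for the peak with the highest summed ChIP count of each gene. Genes of the partner list were named where a peak passed the relative test or lay within 1 kb of the TSS, and 1 of them is not reported here. Sequence was printed for the strongest peak of each gene and for peaks with an extended form of AGGTCA or AP-1 heptamer, leaving out exon bases outside the coding parts, which removed the Mafk peak.

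Counts at all 10069 peaks were fitted with edgeR 4.0.16 (quasi-likelihood, R 4.3.3) in 2 ways, with TMM factors on the totals at peaks, and with the ChIP libraries scaled to each other and set to the depth of the input. P-values were adjusted by Benjamini-Hochberg over all peaks. The spread came from the 2 ChIP libraries, and the lone input was assumed to vary like them. The fits were tested on simulated data. Replicates were compared by exact binomial tests (scipy 1.17.1). DESeq2 1.42.0, other size factors, an input minimum of 10, other depths, other windows and leaving out either ChIP replicate were tried as alternatives.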

Additional observations from a re-analysis of the deposited data

How the results depend on the processing

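The count of peaks called against the typical peak stayed at 0 under every setting run, although DESeq2 gave an adjusted p for only 2 of the 27 and an input minimum of 10 left 10 to test. Over all peaks the calls above and below were 154 and 5 with TMM, 39 and 0 with DESeq2 size factors, 102 and 7 without TMM, and 22 and 0 in DESeq2. Leaving out TMM moved the median log2 ratio of all peaks from 0.02 to -0.10, and with it the Maf peak 608 kb downstream from 0.11 to -0.0047. With at least 10 input counts, 10 of 10 tested peaks were above input at equal depth (96.7% of all peaks tested), a smaller count because fewer peaks were tested, and the relative log2 ratios of the Junb peak 6.91 kb upstream (0.25), the Jund peak at 24.0 kb (0.28) and the Maf exon peak (0.25) turned positive; the typical peak of that set had more input reads. The 27 calls above input became 22 without scaling the ChIP replicates (80.7% of all peaks), 19 with ChIP 2 times deeper (56.5%), 19 in DESeq2 (62.2%) and 27 with ChIP 2 times shallower (10068 of 10069 peaks). The number of peaks was 16 by nearest TSS only and 41 with a window of 100 kb. The median ratio was 3.72 with 5 added to each count, and 4.84 to 5.24 when either ChIP replicate was left out. Without either replicate, the fits gave values and no test, and no relative log2 ratio of the 27 peaks moved by more than its standard error. The sign changed at 5 peaks without replicate 1 (both Fosb peaks, Jun at 43.7 kb, Jund at 24.0 kb and the Maf exon, now between -0.24 and 0.19) and at 1 without replicate 2 (Maf at 608 kb, -0.04). A searched motif was found in 18 of the 27 peaks, and in 9 when only the central 100 bp were searched. No paired analysis was possible because the label of the input carries no replicate number, so the groups share none. Input counts of 4 to 14 per peak limit the precision of every ratio.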
